A study of Canis lupus familiaris with 22 samples.

Results

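The interleukin-1 family was followed in the blood of dogs with canine atopic dermatitis (cAD), an inherited, itching skin allergy, before and after allergen-specific immunotherapy (ASIT), which is the repeated dosing of the allergens a patient reacts to. The family was taken as 10 genes: the agonists *IL36G*, *IL1A*, *IL1B*, *IL18* and *IL33*, the antagonist *IL1RN*, the signalling receptor chains *IL1R1* and *IL1RAP*, the decoy receptor *IL1R2* and the processing enzyme *CASP1*. Every array probe whose annotated gene name equalled one of these symbols was used, which gave 14 of the 43603 transcript probes and 9 of the 10 genes, among 14227 gene names on the array. No probe carried the name *CASP1*. Of the 14 probes, 10 were bright enough to be tested, among 38286 such probes in all.

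Venous whole blood was drawn into RNA-stabilising tubes from 8 healthy dogs (ctrl), from 7 client-owned dogs with cAD before ASIT (0) and once more from those 7 dogs when ASIT had run for 6 months (6 months). The sample labels name whole blood as the source, while the study's text speaks of peripheral blood nuclear cells, and the ages of the dogs are not given in the labels. On each of the 22 arrays the RNA of 1 dog, labelled with Cy5, was hybridised against the same reference, a Cy3-labelled pool from 13 other healthy dogs. Values below are log2 ratios of Cy5 over Cy3, so that 0 is the level of the reference pool and a difference of 1 is a 2-fold difference, and Cy5 signals are in the scanner's processed intensity units. No dyes were swapped, so each ratio carries any dye bias of its probe, which is shared by the groups compared.

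The members of the family are small secreted or released signals and the receptors that read them. An agonist binds its own receptor chain, recruits an accessory chain, which is that encoded by *IL1RAP* for IL-1, IL-33 and IL-36 and another for IL-18, and starts MyD88-dependent signalling to NF-κB. The antagonist occupies the receptor without recruiting the accessory chain, the decoy receptor binds ligand without a signalling tail, and caspase-1 cuts the precursors of IL-1β and IL-18 into their active forms. *IL36G* encodes IL-36γ, a cytokine known mainly from keratinocytes and other barrier cells, *IL33* an alarmin of barrier and stromal cells, and neutrophils and monocytes of the blood are known sources of IL-1β, its antagonist and its decoy receptor.

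The letters of the probes set what each measurement can see, and the probes behind the main results are shown 5′ to 3′ in the sense of the transcript, as deposited with the arrays. The capitals in the *IL36G*, *IL1RN* and *IL1RAP* probes mark a stop codon that closes the probe. The 19 codons before it, read in the same frame, hold no other stop, so these 3 probes read the last codons of an open frame. In the *IL1R2* probe the capitals mark the single stop of the frame that runs through 17 codons before it. The *IL33* probe has 1 frame with no stop.
IL36G, A_11_P087381, chr17:37148284-37148343, plus strand: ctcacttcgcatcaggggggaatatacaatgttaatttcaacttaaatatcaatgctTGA
IL33, A_11_P094911, chr11:27254751-27254808, plus strand: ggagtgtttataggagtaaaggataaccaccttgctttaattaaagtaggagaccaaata
IL1RN, A_11_P0000019819, chr17:37249267-37249326, plus strand: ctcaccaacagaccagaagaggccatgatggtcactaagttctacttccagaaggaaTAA
IL1RAP, A_11_P065056, chr34:22623257-22623316, plus strand: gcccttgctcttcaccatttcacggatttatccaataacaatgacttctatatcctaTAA
IL1R2, A_11_P0000020395, chr10:40968276-40968335, minus strand: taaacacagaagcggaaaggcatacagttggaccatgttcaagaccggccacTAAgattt

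The coordinates are those the array files give, on the dog build canFam3.1. The probe for *IL33* is 60 letters long but spans 58 bases of the genome. Probes of 4 members, *IL1A*, *IL1B*, *IL36G* and *IL1RN*, lie within 279 kb of chromosome 17, and those of *IL1R1* and *IL1R2* lie on chromosome 10. All 14 probes were 60 letters long, and 55% to 65% of their letters were A or T.

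The arrays were not equally bright. The share of all probes well above background in Cy5, the scanner software's flag for a spot clear of its local background, had a median of 87.8% on ctrl arrays, 62.5% before ASIT and 61.6% after it, and in the Cy3 reference channel of 81.6%, 58.0% and 56.8%. The 8 ctrl arrays lay on 2 slides scanned on a day of their own, and the 14 arrays of the cAD patients lay on 4 other slides scanned on 3 later days, so group and slide cannot be told apart in both comparisons with ctrl. A ratio of exactly 0, which the software writes for spots it could not separate from background, made up a median of 2.25%, 12.4% and 19.2% of probes in ctrl, before and after ASIT. Probes near background are therefore given with their flags.

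None of the 10 family probes tested passed an adjusted p of 0.05 in limma in any of the 3 comparisons. The background was 0.0418% of all probes called in 0 vs. ctrl and 0% in both other comparisons. At an unadjusted p under 0.05, 2 of the 10 probes, those of *IL36G* and *IL33*, were lower in 0 vs. ctrl, where 11.7% of all probes passed and 7.93% passed as lower. Both entered the test, which asked for Cy5 well above background on at least 7 of the 22 arrays, through the 8 ctrl arrays, and were above background on 2 of 7 and 1 of 7 arrays before ASIT, so their count is a description of probes that a bright ctrl group had let in. No family probe passed in 6 months vs. ctrl, where 7.2% of all probes did, and 1 probe, again that of *IL36G*, was lower in 0 vs. 6 months, where 5.96% of all probes passed and 3.81% passed as lower. None of the 7 arrays after ASIT measured that probe, so this pass is not read as a difference in level. The median difference over the 10 probes was 0.04, 0.10 and −0.06 in log2 ratio in the 3 comparisons, beside −0.02, −0.04 and −0.01 over all probes tested. Both comparisons with ctrl share the ctrl arrays. The exact permutation test over arrays was run on all 14 probes in the 3 comparisons, 42 differences in all, and its two-sided p could not go below 0.000155 against ctrl or 0.000583 between the groups of cAD patients.

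**Figure D1:**
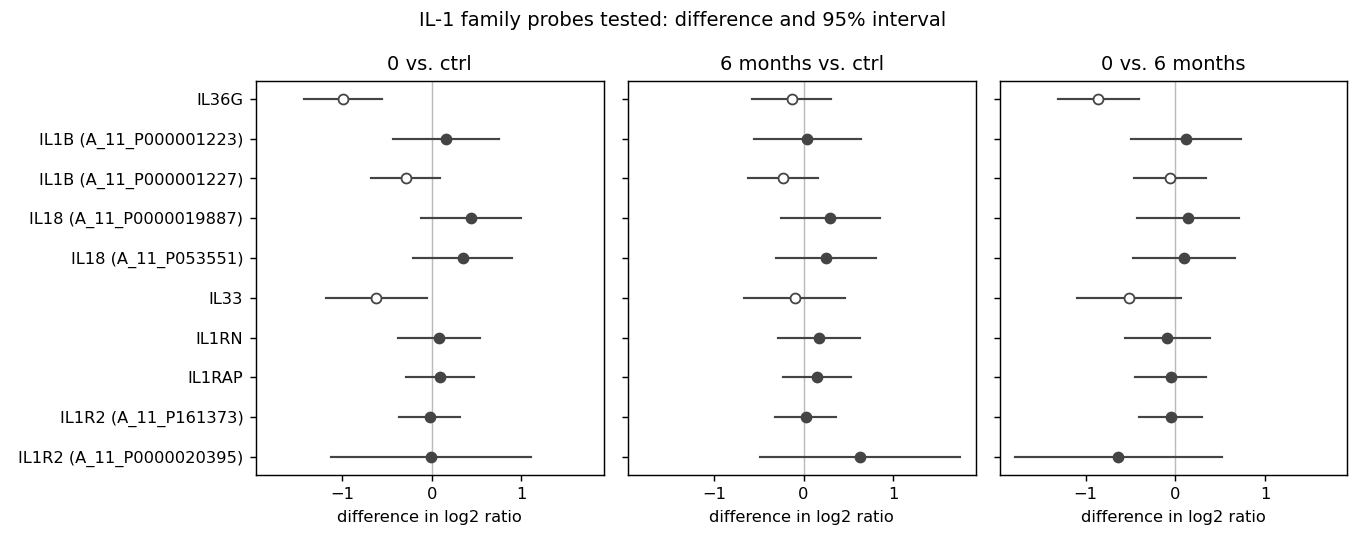
Differences in log2 ratio for the 10 IL-1 family probes tested, in the 3 comparisons, with points for the difference of group means and lines for the 95% interval from limma. Filled points are probes well above background on all 22 arrays, and each of their intervals holds 0. Open points are the *IL36G*, *IL33* and second *IL1B* probes, which entered the test through the ctrl arrays and were not measured on most arrays of the cAD patients.

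*IL36G* had ratios before ASIT that all lay below those of ctrl, on arrays of which 2 of 7 measured the probe above background, against 8 of 8 in ctrl and 0 of 7 after ASIT. Its ratios in the 8 ctrl dogs were 0.48, 0.30, 0.05, 0.07, −0.33, 0.46, −0.60 and −0.16. In the 7 dogs before ASIT they were −0.63, −0.82, −0.62, −1.02, −0.79, −1.72 and −1.10, given in the order of dogs 1 to 7. All 7 lay below every ctrl dog, the nearest values being −0.62 before ASIT and −0.60 in ctrl. After 6 months the ratios of the same dogs were −0.19, −0.85, 0.69, 0, −0.35, 0 and 0, which overlapped both other groups.

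The mean ratio of *IL36G* was 0.03 ± 0.38 (SD, n = 8) in the healthy dogs and −0.96 ± 0.38 (SD, n = 7) in the patients before ASIT. After 6 months it was −0.10 ± 0.46 (SD, n = 7). The difference in 0 vs. ctrl was −0.99 (SE 0.21, 95% interval −1.43 to −0.55), with an adjusted p of 0.0848 in limma and an exact permutation p of 0.000311. Among all probes tested, 0.136% were lower in 0 vs. ctrl with groups that did not overlap. The probe had entered the test through ctrl, the group where it is bright, and 5 of the 7 arrays before ASIT did not measure it, so these values, the lack of overlap and the passes below describe the ratios as deposited and are not evidence of a difference in level. The mean ratios differed by −0.13 in 6 months vs. ctrl and by −0.86 in 0 vs. 6 months. With an array left out these ran from −0.27 to −0.01 and from −0.98 to −0.73. No p is given for these 2 comparisons because no array after ASIT measured the probe. *IL36G* was chosen for emphasis by the study on these same samples, so its values are not independent evidence of a direction. The study also analysed *IL36G* by real-time PCR, whose values are not part of the arrays read here. In whole blood, fewer cells of a type and less RNA per cell cannot be told apart. The adjusted p in 0 vs. ctrl passed 0.05 when any of 3 arrays was left out, at 0.0255 without dog 1 before ASIT, 0.0478 without dog 2 before ASIT and 0.0333 without dog 3 after it. In those fits 440, 135 and 92 of the 38286 probes were called, against 16 with all arrays. With normexp background correction and loess in place of the deposited ratios the difference in 0 vs. ctrl was −0.05, with an exact permutation p of 0.196. That setting adds an offset of 50 to every signal, which shrinks the ratios of dim probes, so it cannot decide whether the level differed. With the ratios of the series' value table, whose ctrl columns differ from the scanner's, the difference was −0.65. The groups overlapped there, with an exact permutation p of 0.0317.

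Within dogs, the deposited ratio of *IL36G* was the lower one before ASIT in 6 of 7, on arrays that mostly did not measure the probe. The within-dog differences, before minus after, were −0.44, 0.02, −1.31, −1.02, −0.44, −1.72 and −1.10 for dogs 1 to 7, and carry no test, for the same reason. In dogs 4, 6 and 7 the later ratio was an exact 0, so the whole within-dog difference of these dogs was the earlier ratio. Dogs 1 to 3 had both of their arrays on a shared slide, and over them the difference was −0.58. On slide 3, which held dogs 1 and 2, the means were −0.73 before and −0.52 after. On slide 4, with 2 dogs before and 1 after, they were −0.82 and 0.69. With slide as a fixed term the difference over the cAD patients was −0.73.

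**Figure D2:**
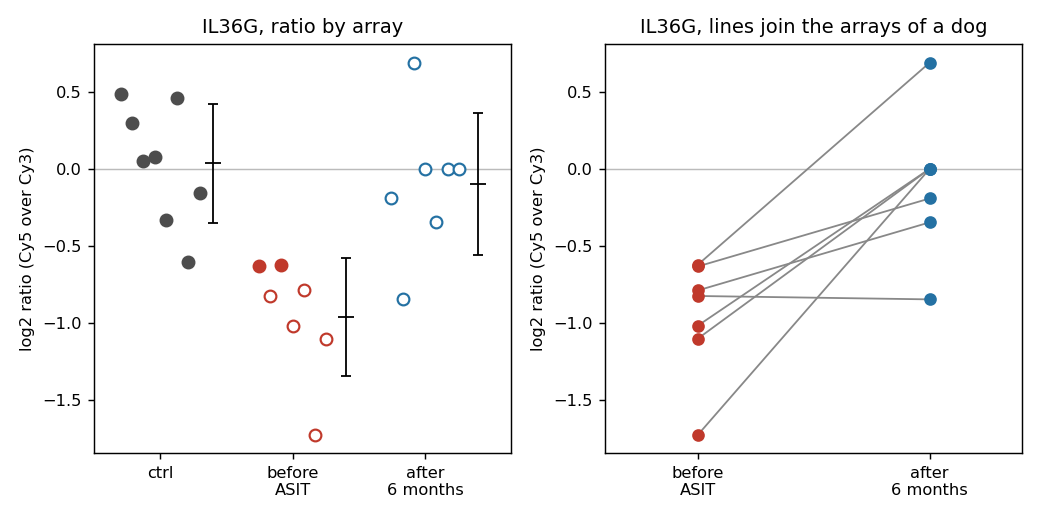
Log2 ratios of the *IL36G* probe, on the left for each array by group with the mean and SD beside the points, and on the right before and after ASIT with a line for each dog. Open circles on the left are arrays on which the Cy5 signal was not well above background; all 7 points before ASIT lie below the 8 ctrl points, and 3 of the 7 points after ASIT lie at 0.

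The flags set a limit on these values. The Cy5 signal of *IL36G* cleared background on all 8 ctrl arrays but on only 2 of 7 before ASIT and 0 of 7 later, and the Cy3 signal of the reference pool was so on 4, 3 and 1. Its Cy5 signal ran from 38.9 to 105 in ctrl, from 4.62 to 48.0 before ASIT and from 5.37 to 41.8 after it. So the 2 groups of cAD patients covered nearly the same range of signal, both reaching far below ctrl, although their ratios differed. Of the 2 arrays before ASIT that were above background, dog 1 had a ratio of −0.63 and dog 3 of −0.62. When the Cy5 channel was used alone, scaled to the 75th percentile of each array, *IL36G* differed from ctrl by −1.92 before ASIT and by −1.93 at 6 months, and the 2 times differed from each other by 0.0019. In this setting the median over all probes was itself shifted by −0.44 and −0.37 against ctrl. On background-corrected Cy5 values normalized between arrays, log2 means were 6.66 in ctrl, 6.68 before and 6.62 after ASIT. The ranges of these values overlapped, from 6.58 to 6.71 in ctrl and from 6.47 to 6.87 after ASIT. On this scale the mean before ASIT was not below that of ctrl. The scale adds an offset of 50 to every signal and evens out the brightness of the arrays. It draws dim probes together in every group, so these means cannot decide whether the level differed.

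*IL33*, whose product is released from damaged barrier cells and signals through the ST2 receptor, was likewise measured mainly in ctrl. In ctrl its ratios were 0.46, 0.08, −0.09, −0.27, −0.18, 0.20, 0.34 and −0.35. Before ASIT they were 0.22, 0.50, −0.64, −1.86, −1.17, −1.01 and −0.20, and after it −0.18, 0.54, −0.88, 0, 0, 0 and 0. Dogs 1 and 2 stood with the ctrl dogs before ASIT while dogs 3 to 6 stood below all of them, so the groups overlapped. The difference in 0 vs. ctrl was −0.62 (95% interval −1.18 to −0.05), with an adjusted p of 0.366 in limma and an exact permutation p of 0.0682. The probe was above background on all 8 ctrl arrays but on 1 of 7 before ASIT and 2 of 7 after it, so most patient values in these differences are from arrays that did not measure it, and they are given as a description. Without dog 4 before ASIT the difference was −0.41, and without dog 2 it was −0.80, with exact permutation p values of 0.151 and 0.0130. In 6 months vs. ctrl it was −0.10, which turned to 0.04 without dog 3 after ASIT. In 0 vs. 6 months it was −0.52, and it ran from −0.70 without dog 2 before ASIT to −0.31 without dog 4.

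The signal of *IL33* divided by scan day. On the 12 arrays of scan days 1 and 2, the Cy5 signal was between 36.6 and 193, and 11 of the 12 arrays were well above background. On the 10 arrays of scan days 3 and 4, the signal was between 4.82 and 11.7, and 0 of the 10 were. Dogs 1 and 2 were scanned on day 2 at both times, and the other dogs on day 3 or 4. Over dogs 1 to 3, whose paired arrays shared a slide, the difference before minus after was 0.20, opposite in sign to the difference over all 7 dogs. The part of the scan day in the difference from ctrl was not tested, since all ctrl arrays were scanned on day 1. The other *IL33* probe, 1827 bases away, was well above background on 3 ctrl arrays and on 0 of the 14 arrays of the cAD patients, and was not tested.

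**Figure D3:**
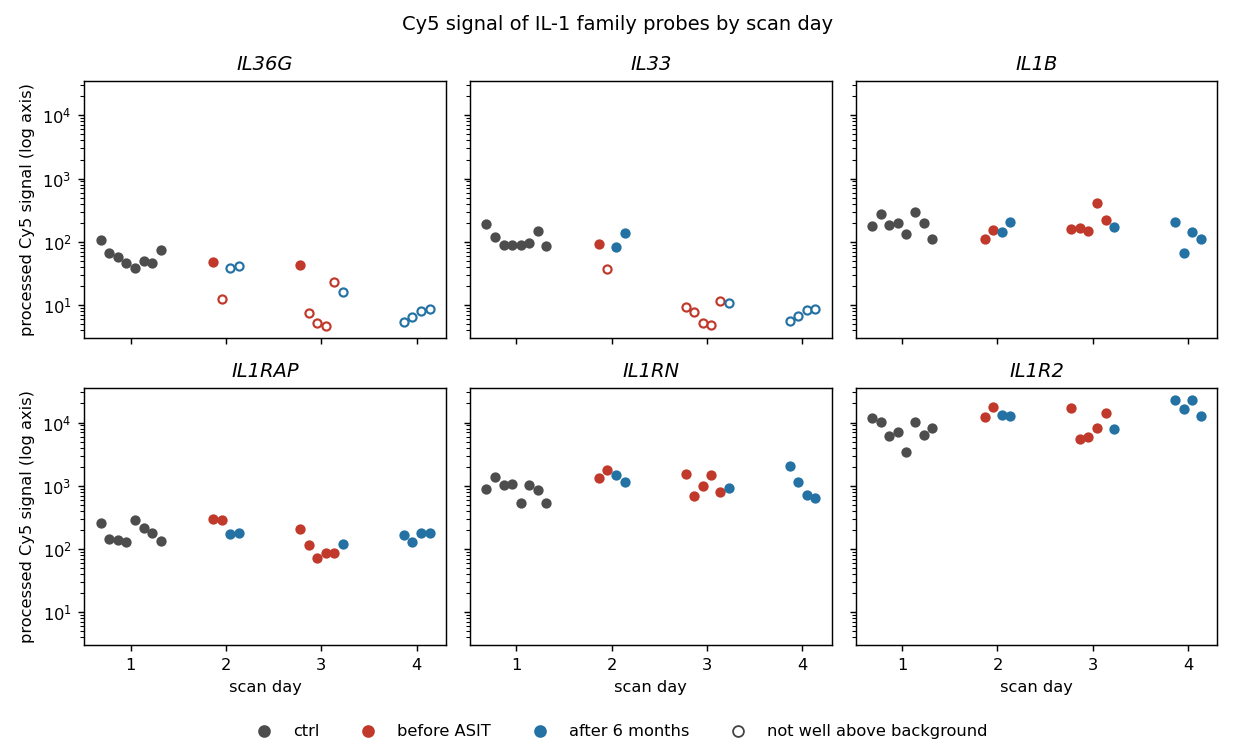
Processed Cy5 signal on a log axis by scan day for 6 IL-1 family probes, a point for each array, coloured by group, with open circles where the signal was not well above background. The *IL36G* and *IL33* probes had signals of 11.7 or less only on scan days 3 and 4, on which none of the *IL33* points is filled, whereas the other 4 probes were filled on all 22 arrays.

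*IL1B*, the central inflammatory cytokine of the family, was measured by 3 probes. Its brightest probe cleared background throughout. Its ratios were −0.22, 0.47, 0.11, 0.66, −0.34, 0.54, 0.26 and −0.30 in ctrl. Before ASIT they were −0.63, −0.29, 0.07, 0.44, 0.35, 1.67 and 0.55, and after it −0.59, −0.14, 0.34, 1.19, −0.29, 0.55 and 0.29. The groups overlapped throughout, and the widest values were those of dog 6 before ASIT and dog 4 after it. On the 4 arrays of scan day 2, those of dogs 1 and 2, the mean ratio was −0.41, against 0.52 on the 10 arrays of days 3 and 4. The part of the scan day was not tested. Relative to ctrl the differences were 0.16 (95% interval −0.43 to 0.75) before ASIT and 0.04 (−0.55 to 0.64) at 6 months, and between the times 0.12 (−0.49 to 0.73), all smaller than the spread between dogs. The sign in 0 vs. ctrl rested on dog 6, without which the difference was −0.07. In 6 months vs. ctrl the sign turned without any of 5 arrays, those of ctrl dogs 1, 5 and 8 and of dogs 4 and 6 after ASIT. The lowest value there was −0.12, without dog 4. In 0 vs. 6 months the sign turned too, to −0.11 without dog 6 before ASIT and to −0.01 without dog 1 after it.

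The second *IL1B* probe was designed from a partial sequence and has nearly the letters of the first. The capitals mark where the pair differs.
IL1B, A_11_P000001223, chr17:37021889-37021948, minus strand: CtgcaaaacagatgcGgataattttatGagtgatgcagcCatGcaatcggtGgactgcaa
IL1B, A_11_P000001227, unmapped in the array files: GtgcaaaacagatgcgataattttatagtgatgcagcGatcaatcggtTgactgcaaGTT

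Aligned end to end, the pair differed by 3 substitutions, by 3 bases found only in the first and by 3 found only in the second, and matched at 54 positions. The second probe was well above background on 7 ctrl arrays, 1 array before ASIT and 1 after it, and it stood at an exact 0 on 10 of the 14 arrays of the cAD patients. It had entered the test through the ctrl arrays, and its differences of −0.29, −0.23 and −0.06 in the 3 comparisons, opposite in sign to those of the first probe, come mostly from arrays that did not measure it, so they do not show that the pair read differently. The third probe, 82 genomic bases from the first, was well above background on 2 ctrl arrays, 3 before ASIT and 1 after it, and was not tested. Its ratios before ASIT spread from −1.89 in dog 1 to 2.92 in dog 6.

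*IL18*, whose product drives interferon-γ release, was read by 2 probes that lie 4525 bases apart in the genome and were both well above background on every array. The ratios of the brighter probe were −0.39, 0.80, 0.02, −0.29, −0.51, −0.25, −0.29 and −0.37 in ctrl. The cAD patients read 0.56, 0.88, −0.15, −0.53, 0.23, 0.48 and 0.48 before ASIT, and after it 0.55, 1.19, −0.73, −0.77, 0.05, 0.41 and 0.27. Ctrl dog 2 stood far above the other ctrl dogs, and among the cAD patients dogs 3 and 4 stood lowest at both times while dog 2 stood highest at both times. Dogs 1 and 2, scanned on day 2 at both times, had mean ratios of 0.72 before ASIT and 0.87 after it. The mean was 0.10 before ASIT on day 3 and −0.01 after it on day 4. The values of dogs 1 and 2 and scan day 2 therefore cannot be told apart. The difference in 0 vs. ctrl was 0.44 (95% interval −0.12 to 0.99), with an adjusted p of 0.561 in limma and an exact permutation p of 0.0834. The other probe gave 0.35, with an exact permutation p of 0.176. Without ctrl dog 2, the differences were 0.57 and 0.49, with exact permutation p values of 0.0157 and 0.0361. Without cAD dog 4 before ASIT they were 0.57 and 0.49, with exact permutation p values of 0.0230 and 0.0483. Without cAD dog 2 before ASIT they were 0.34 and 0.24, with exact permutation p values of 0.167 and 0.327. The adjusted p in limma stayed at 0.391 or above in all of these fits. In 6 months vs. ctrl the probes differed by 0.30 and 0.25, with exact permutation p values of 0.328 and 0.4002. Without dog 2 after ASIT these fell to 0.12 and 0.08. They rose to 0.45 without dog 4 after ASIT at the first probe and to 0.39 without dog 3 after ASIT at the other. In 0 vs. 6 months the differences were 0.14 and 0.10, with exact sign-flip p values of 0.266 and 0.406, and the ratio was higher before ASIT in 6 of 7 dogs at the first probe and in 5 of 7 at the other. Both of these signs turned when a single array was left out, to −0.01 without dog 4 after ASIT and to −0.05 without dog 3 after ASIT.

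The receptor of IL-18 was on the pathway list rather than among the members. *IL18RAP*, its accessory chain, differed by 0.63 in 0 vs. ctrl, with an adjusted p of 0.456 in limma and an exact permutation p of 0.0329. Without dog 2, whose ratio of 2.29 was the highest before ASIT, the difference was 0.37, with an exact permutation p of 0.0803. *IL18R1*, the ligand-binding chain, named after its values were seen, differed by 0.45 with an exact permutation p of 0.0805. *IL18BP*, which encodes a soluble inhibitor of IL-18, was read by 2 probes that differed by −0.03 and −0.04.

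*IL1A* was not measured in this blood at the sensitivity of the arrays. The single probe of this agonist, which is held inside cells until they die or are activated, was well above background on 0 of 22 arrays in either channel, and 10 of its 22 ratios were an exact 0. Its ratios were −1.18, 0.92, 0.64, 0.16, 0, 1.03, 1.34 and 0.83 in ctrl. The patients read 0, 0, 0, 0, 0.70, 1.21 and 0 before ASIT, and −0.84, −0.01, 0, 0.58, 0, 0 and 0 after it. These values carry no order between groups, and the probe was not tested.

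The antagonist *IL1RN* gave a clear signal on all 22 arrays and did not separate the groups. Its ratios were −0.23, 0.39, 0.42, 0.27, −0.67, 0.12, −0.03 and −0.45 in ctrl. The patients read 0.32, 0.84, 0.37, −0.74, −0.40, 0.36 and −0.34 before ASIT, and after it 0.49, 0.08, −0.03, 0.46, 0.39, −0.12 and −0.25. Before ASIT 4 dogs lay at or above 0.32 and 3 at or below −0.34, with none between. Relative to ctrl it differed by 0.08 (95% interval −0.38 to 0.54) before ASIT and by 0.17 (−0.29 to 0.63) at 6 months, and the 2 times differed by −0.09 (−0.56 to 0.38). Single arrays turned the sign, since 0 vs. ctrl ran from −0.05 without dog 2 before ASIT to 0.21 without dog 4, and 0 vs. 6 months from −0.22 to 0.05 without the same arrays. In 6 months vs. ctrl the value ran from 0.08 without ctrl dog 5 to 0.24 without dog 7 after ASIT. Within dogs the change ran in both directions, from −1.20 in dog 4 to 0.76 in dog 2, before minus after.

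**Figure D4:**
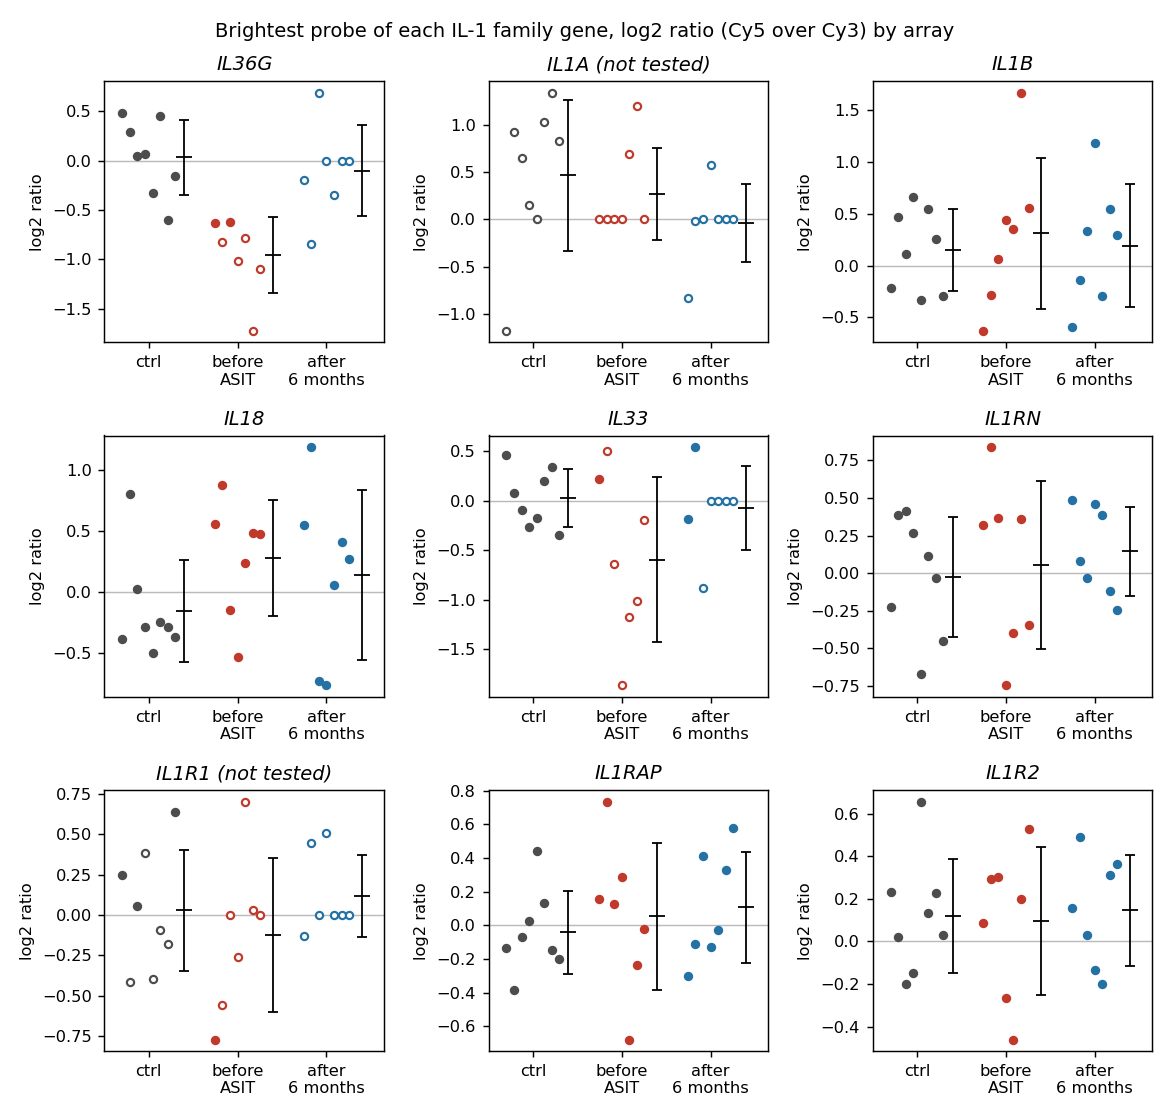
Log2 ratios of the brightest probe of each of the 9 IL-1 family genes with a probe, a point for each array by group, with the mean and SD beside the points and open circles where the Cy5 signal was not well above background. The vertical scales differ between panels. The *IL36G* panel is the only one here in which the points before ASIT all lie below the ctrl points.

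Among the signalling receptor chains, *IL1R1*, the receptor of IL-1α and IL-1β, was near background. Its probe cleared background on 4 of 22 arrays, 3 of them ctrl, and it was not tested. Its ratios were 0.25, −0.42, 0.06, 0.38, −0.40, −0.09, −0.18 and 0.64 in ctrl. The patients read −0.77, −0.56, 0, −0.26, 0.70, 0.03 and 0 before ASIT, and −0.13, 0.45, 0, 0.51, 0, 0 and 0 after it, so the groups overlapped.

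*IL1RAP*, the accessory chain that the receptors of IL-1, IL-33 and IL-36 share, cleared background on every one of the 22 arrays. Its ratios were −0.13, −0.38, −0.07, 0.02, 0.44, 0.13, −0.15 and −0.20 in ctrl. Before ASIT they were 0.16, 0.73, 0.13, 0.29, −0.68, −0.23 and −0.02, and after it −0.30, −0.11, 0.41, −0.13, −0.03, 0.33 and 0.58. The 3 groups overlapped, with differences from ctrl of 0.09 (95% interval −0.29 to 0.48) before ASIT and 0.15 (−0.23 to 0.53) at 6 months, and of −0.05 (−0.45 to 0.34) between the times. Leaving out dog 2 before ASIT gave −0.02 in 0 vs. ctrl and −0.17 in 0 vs. 6 months, and leaving out dog 5 gave 0.22 and 0.07, so both signs turned with a single array. In 6 months vs. ctrl the value ran from 0.07 without dog 7 after ASIT to 0.22 without ctrl dog 5. Within dogs, before minus after, dogs 5 to 7 differed by −0.65 to −0.56 and dogs 1, 2 and 4 by 0.42 to 0.85.

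The decoy receptor *IL1R2* was read by 2 probes 689 genomic bases apart, and the pair did not agree in spread. The brighter probe holds the letters AATAAA, the usual polyadenylation signal, 1 time. Its ratios were 0.23, 0.02, −0.20, −0.15, 0.66, 0.13, 0.23 and 0.03 in ctrl. In the patients they were 0.09, 0.29, 0.30, −0.27, −0.46, 0.20 and 0.53 before ASIT, and after it 0.16, 0.49, 0.03, −0.13, −0.20, 0.31 and 0.36. All 22 ratios thus lay within 0.66 of the reference, and the differences were −0.02 (95% interval −0.36 to 0.32), 0.03 (−0.31 to 0.37) and −0.05 (−0.40 to 0.30) in the 3 comparisons. With an array left out these values ran from −0.09 to 0.07, from −0.03 to 0.10 and from −0.12 to 0.04, so none kept its sign.

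The other *IL1R2* probe, the one printed above, ran far wider, although it too cleared background on each array. Its ratios were 0.40, −0.04, 0.25, 0.78, −0.51, −0.45, 1.43 and −0.21 in ctrl. Before ASIT they were −0.33, 2.92, 0.83, −0.38, −0.17, −1.04 and −0.42, and after it −0.37, 0.37, 2.69, 2.85, 0.56, −0.21 and −0.01. The highest values belonged to dog 2 before ASIT and to dogs 3 and 4 after it, and the Cy5 signal on those arrays was 4675, 2389.8 and 3842, against 209 to 849.7 on the other arrays of the cAD patients. On the same 3 arrays the brighter probe read 0.29, 0.03 and −0.13. The differences were −0.01, 0.63 and −0.63 in the 3 comparisons, with 95% intervals of −1.12 to 1.11, −0.49 to 1.74 and −1.78 to 0.52, so a shift of 1 in either direction was not detectable with this spread. Without dog 2 before ASIT the difference in 0 vs. ctrl was −0.46, and without dog 4 after ASIT that in 6 months vs. ctrl was 0.29. The difference in 0 vs. 6 months was −1.09 and −0.30 without the same arrays.

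**Figure D5:**
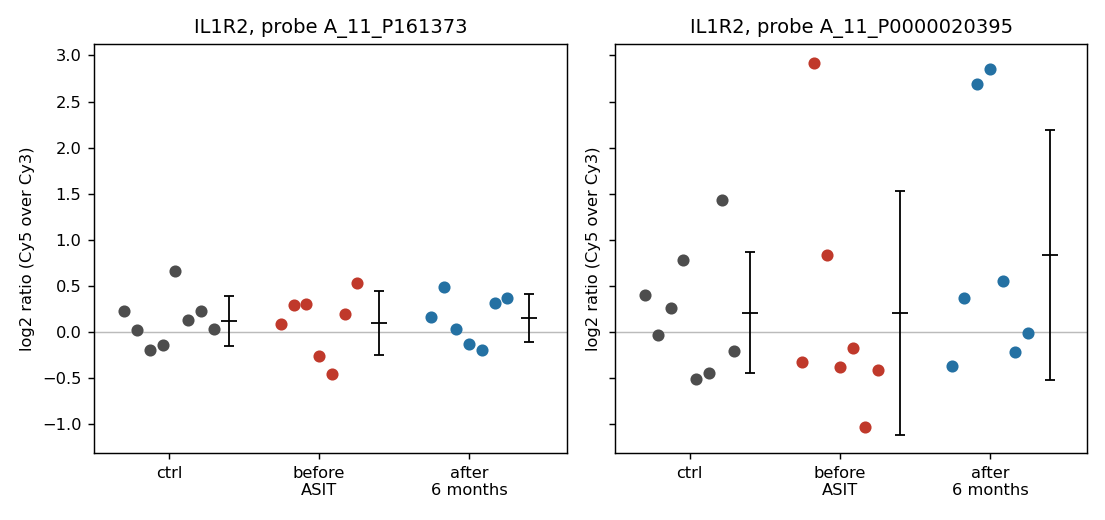
Log2 ratios of the 2 *IL1R2* probes for each array by group on a shared scale, with the mean and SD beside the points. The brighter probe on the left stays between −0.46 and 0.66, while the other on the right reaches 2.92 before ASIT and 2.85 after it in single dogs.

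*CASP1* had no probe under its name. In the RefSeq gene table of the dog, the symbol stands as a synonym of *CASP4*, a caspase of the inflammasome, whose probe was on the pathway list. Clear of background on every array, it differed from ctrl by −0.11 before ASIT and −0.06 at 6 months and by −0.05 between the times, with adjusted p values of 0.902, 0.968 and 0.980 in limma. Its values are given under the name of the array files and not as those of *CASP1*.

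Likeness to single members was ranked by the root mean square difference in log2 ratio over the 22 arrays, among 13158 probes with a gene name that were above background on every array. For *IL36G* the nearest included *SDPR*, *NELFE* and *MED1*, at 0.486 to 0.523, beside a median of 0.749 over the probes ranked. *SDPR*, known for its part in shaping caveolae, had means of −0.05, −0.52 and −0.10 in ctrl, before and after ASIT. The *IL36G* probe was above background in Cy5 on only 10 of the 22 arrays. These genes were picked for likeness to its ratios, so their values are a description and not evidence of the level of *IL36G*. For the wide *IL1R2* probe the nearest were *ORM1*, *IL18RAP*, *PANK3*, *DHX34* and *KMO*, at 0.825 to 0.845, beside a median of 1.24. *ORM1*, an acute-phase protein gene, reached 1.60 on its highest array and *IL18RAP* 2.29.

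Of the 51 further genes of the pathway listed for the family, 31 had a probe, and 44 of their 46 probes were tested. None passed an adjusted p of 0.05 in limma in any comparison. At an unadjusted p under 0.05, 2 of the 44 probes were lower in 0 vs. ctrl, where 7.93% of all probes passed as lower, 1 was higher in 6 months vs. ctrl, where 4.09% of all probes passed as higher, and 0 passed in 0 vs. 6 months, and the list's medians were −0.03, −0.03 and −0.05. The 2 lower probes were those of *PELI1*, a ubiquitin ligase of IL-1 receptor signalling, and *IL1RL1*, which encodes ST2, the receptor of IL-33. By the exact permutation test 12.5% of all probes had a p under 0.05 in this comparison. *PELI1* differed by −0.32 (95% interval −0.55 to −0.08), with an adjusted p of 0.238 in limma and an exact permutation p of 0.00357. Its other probe, also above background on all arrays, went the opposite way, by 0.22 with an exact permutation p of 0.267. *IL1RL1* differed by −0.68 (95% interval −1.25 to −0.10), with an adjusted p of 0.314 and an exact permutation p of 0.0199, and with an array left out it ran from −0.84 to −0.47. Its ratios ran from −0.31 to 0.84 in ctrl, from −1.74 to 0.48 before ASIT and from −0.73 to 0.93 after it.

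In 6 months vs. ctrl the higher probe was that of *TOLLIP*, an adaptor that dampens IL-1 receptor signalling, with a difference of 0.39 (95% interval 0.05 to 0.74), an adjusted p of 0.681 in limma and an exact permutation p of 0.00544. The other *TOLLIP* probes gave 0.35 and 0.18, with exact permutation p values of 0.0284 and 0.521. The adaptor *MYD88* differed by 0.70 in 0 vs. ctrl, or by 0.34 without dog 5 before ASIT, at a probe above background on 7 of 22 arrays, with an adjusted p of 0.572, while its bright probe, above background on all 22, differed by −0.11. *ELANE*, a neutrophil elastase that can cut IL-1 family precursors, differed by 0.45 in 0 vs. ctrl and by 0.54 in 6 months vs. ctrl, with exact permutation p values of 0.0797 and 0.0766, which fell to 0.0147 and 0.00400 without dog 4 before and after ASIT and rose to 0.165 and 0.155 without dog 2 before and dog 7 after it. The remaining pathway probes with the smallest limma p had none under 0.05 before adjustment. *TRAF6*, a ubiquitin ligase of the pathway, differed by −0.27 in 0 vs. ctrl, or by −0.15 without dog 7 before ASIT. Its other probes, above background on all arrays, differed by −0.06 and −0.03. In 6 months vs. ctrl the lower probes included that of *PELI1* at −0.22, with an exact permutation p of 0.00435, while the other *PELI1* probe differed by 0.33. They also included *ECSIT*, an adaptor of TRAF6, at −0.28 and *NEK7*, a kinase of the NLRP3 inflammasome, at −0.25. The other *ECSIT* probe differed by −0.12, and the other *NEK7* probes by −0.18 and −0.31. Without ctrl dog 2 the *NEK7* value of −0.25 became −0.14. In 0 vs. 6 months *ECSIT* differed by 0.27, with 0.02 at its other probe. *TAB2*, an adaptor of the kinase TAK1, differed by 0.25, with 0.20 and 0.06 at its other probes. In the other direction *IL1RL1* differed by −0.58, or by −0.38 without dog 7 before ASIT. *P2RX7*, the ATP-gated channel upstream of the inflammasome, differed by −0.42, or by −0.28 without dog 7 after ASIT. The other *P2RX7* probe, above background on 18 of 22 arrays, gave −0.14.

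Further ligands of the chromosome 17 cluster, of which *IL36RN* was named after its values were seen, were above background on every ctrl array or nearly so and on few arrays of the cAD patients. The probe of *IL36RN*, the antagonist of IL-36, was above background on 11 of 22 arrays, 7 of them ctrl, and differed by −0.45 in 0 vs. ctrl. The probe of *IL37*, which encodes a member that dampens inflammation, was so on 12 of 22 arrays, 8 of them ctrl. It differed from ctrl by 0.25 before ASIT and −0.17 at 6 months, and by 0.42 between the times. Without dog 5 after ASIT the last of these was 0.21. That of *IL1F10*, which encodes IL-38, was also so on 12 arrays, 8 of them ctrl. It differed from ctrl by 0.17 before ASIT and by 0.66 at 6 months, and by −0.48 between the times. Without dog 4 before ASIT the last of these was −0.16. These 3 probes entered the test through ctrl, and each was measured on 1 to 3 of 7 arrays in either group of cAD patients, so their differences are a description. On chromosome 10, the probe of *IL1RL2*, the IL-36 receptor, also named after its values were seen, was too dim to be tested.

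Marker lists of blood and skin cells were read beside the family. Of 9 neutrophil markers with a probe, 8 or 9 were above background on every array, of 9 monocyte markers 8 or 9, and of 7 T cell markers all 7. Of 7 B cell markers, 7 were above background on each ctrl array, 5 to 7 before ASIT and 4 to 7 after it. Of 8 keratinocyte markers with a probe, 4 to 7 were above background on ctrl arrays, 3 to 7 before ASIT and 3 to 6 after it, and the mean ratio over the list ran from −0.05 to 0.25 in ctrl, from −0.09 to 0.14 before ASIT and from −0.20 to 0.10 after it. No marker of any of the 7 lists passed an adjusted p of 0.05 in limma in any comparison. At an unadjusted p under 0.05, 1 of 4 platelet markers tested was lower in 0 vs. ctrl, where 7.93% of all probes passed as lower. Of 9 monocyte markers tested, 1 was higher in 6 months vs. ctrl, where 4.09% of all probes passed as higher. No other marker passed in the 3 comparisons, in which 11.7%, 7.2% and 5.96% of all probes did. The mean ratio of the neutrophil list ran from −0.37 to 0.38 in ctrl, from −0.42 to 0.71 before ASIT and from 0.01 to 0.75 after it. The median differences of the erythroid list were 0.49 in 0 vs. ctrl and 0.93 in 6 months vs. ctrl. That of the platelet list was −0.48 in 0 vs. ctrl. The mean ratio of the erythroid list ran from −1.66 to 1.31 in ctrl, from −1.45 to 1.35 before ASIT and from −0.75 to 1.57 after it. For the platelet list it ran from −0.85 to 0.76 in ctrl and from −1.10 to 0.41 before ASIT. The part of cell composition in the differences of *IL36G* and *IL33* was not tested.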

How the data were processed

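Arrays were Agilent canine 44K slides. According to the file headers, the authors extracted them with Feature Extraction 10.10.1.1, while the submitters' notes name 10.7.3.1. The deposited log10 ratios of Cy5 over Cy3, background-subtracted and dye-normalized by that software, were multiplied into log2 ratios here, and the deposited signal intensity and its background flags were read beside them. In the series' value table the deposited log10 ratios equal the scanner's for the 14 arrays of cAD patients, while ctrl columns correlated with the scanner's at 0.711 to 0.844. It served as an alternative.

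Of 43803 transcript spots, 208 flagged as outliers on any array were left out there, spots of a probe were averaged, and 38286 of 43603 probes, with Cy5 well above background on at least 7 of 22 arrays, were tested in 1 fit of 3 groups (limma 3.58.1, R 4.3.3) with Benjamini-Hochberg adjustment over all of them. Single probes also had two-sided exact permutation tests, and exact sign-flip tests within dogs. The scripts were tested on simulated data. The before and after arrays come from the same dogs by their source labels, which number the dogs. The titles of the later samples all name patient 1, followed by a running number, so dogs were matched by the source labels. Correlations of same-dog deviations ran from −0.04 to 0.56, and 4 of 7 dogs correlated best with themselves. The family and the pathway and marker lists were chosen with earlier results of these data known. Every family probe was named, with every array's value for each gene's brightest probe, and from the pathway list up to 3 probes in each direction with the smallest limma p in each comparison. The fit of 3 groups and the exact permutation test took the 22 arrays as independent and did not pair the arrays of a dog. Their p-values measure the spread between arrays of a group, in which dog, slide and scan day are mixed. Precision is limited by the number of arrays. Alternatives were normexp with an offset of 50 and loess, the value table, the Cy5 channel alone, the ratio of signals, other filters, slide, scan day or dog as a block, the one-way test of the methods, and leaving out each array. No genome was used. Some genes near *IL36G* in likeness are not reported here.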

Additional observations from a re-analysis of the deposited data

Results flagged for a closer look

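A single array stood apart from the rest of its group, by Dixon's test at the 95% level, in 6 of the 42 sets of arrays formed by the 14 family probes and 3 groups, where chance flags about 1 in 20 sets of independent, continuous values. That rate does not hold for the sets with ratios written as an exact 0, which made up 4 of 7 values for *IL1A* after ASIT, 5 of 7 for the second *IL1B* probe before ASIT, 2 of 7 for the third *IL1B* probe after ASIT and 5 of 7 for the second *IL33* probe after ASIT. Both *IL18* probes were set apart by the same array, that of ctrl dog 2, at 0.804 for the brighter probe, where the next ctrl dog read 0.02, and at 1.19 for the other, where the next read 0.41. The second *IL1B* probe read 0.653 in dog 1 before ASIT, on the single array of that group on which it was above background. The third *IL1B* probe read 1.83 in dog 4 after ASIT, again on the single such array of its group. The *IL1A* probe read −0.836 in dog 1 after ASIT and the second *IL33* probe 1.58 in dog 2 after ASIT, both on arrays where the Cy5 signal was not well above background.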

How the results depend on the processing

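With the Cy5 channel alone, 4 family probes were called in 0 vs. ctrl (*IL36G*, *IL33* and a probe each of *IL18* and *IL1B*) and 4 in 6 months vs. ctrl (*IL36G*, *IL33* and a probe each of *IL1R2* and *IL1B*), and 13 and 14 probes of the pathway list, while 17273 and 15702 of the 38286 probes were called. The *IL36G* difference in 0 vs. 6 months turned from −0.86 to 0.0019 there. Leaving out each array gave 0 to 1 family probes called in 0 vs. ctrl and 0 in the other comparisons, and 440, 135 and 92 of the 38286 probes were called in the 3 fits with a family probe. With the dog as a replicate block 0 family probes were called in 0 vs. 6 months, with a smallest adjusted p of 0.702, and the block changed no other call. Over all results, 303 alternatives other than leaving out an array were run, of which 283 kept the result's side of its threshold, which few results had passed, and 30 changed its sign. The strict filter removes *IL36G* and *IL33*, so it gives no value for them. Signal over background limits *IL36G*, *IL33*, *IL1A* and *IL1R1*, the cause of the changes with processing was not tested, and slide and group cannot be told apart against ctrl.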
